A study of Bos taurus with 24 samples.

Results

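The interferon-stimulated genes described here are 8 genes taken by Ensembl ID from the raw count tables of both tissues, out of 27607 gene IDs. They are ISG15 (ENSBTAG00000014707), MX1 (ENSBTAG00000030913), MX2 (ENSBTAG00000008471), OAS1Y (ENSBTAG00000039861), OAS2 (ENSBTAG00000014628), IFIT1 (ENSBTAG00000007881), RSAD2 (ENSBTAG00000016061) and IFI6 (ENSBTAG00000007554). The IDs were given, with no threshold on a measured value. The symbols come with that list of IDs, and the deposited tables give IDs without symbols. All 8 had reads in both tissues. A filter on low counts kept 8 of 8 among 13752 genes tested in liver and 7 of 8 among 15547 in mammary gland, where ISG15 did not pass.

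Type I interferons are secreted proteins that bind a receptor found on most cells and switch on a common set of antiviral genes. In cattle these genes are best known in early pregnancy, when interferon tau from the conceptus raises ISG15, MX1, MX2 and OAS1 in the uterus and in circulating white blood cells. The cows in this series were in late gestation, long after that signal.

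The series holds 24 RNA-seq libraries of rRNA-depleted total RNA from biopsies of liver and mammary gland, 12 per tissue, taken 21 d before expected calving from multiparous, non-lactating Holstein cows, a dairy breed. Milking had stopped 60 d before expected calving, and from 35 d before it all cows lived under 16 h light and 8 h dark (150 lx). In control cows (6 libraries per tissue) the cycle was constant, and in phase shift cows (6 libraries per tissue) it was moved forward by 6 h every 3 d for 2 weeks, with at least 5 shifts before the biopsies. Each treatment had its own partition of 1 barn, and the 2 cannot be told apart. The labels name 13 cows, of which 6 are control and 7 phase shift (the series text states 6 of each), and 11 cows have both tissues. A cow number is used in both treatments: control cow 23 and phase shift cow 23 are different animals. Within a tissue each replicate is a separate cow.

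Libraries held 7676913 to 26927601 counts in liver and 5046912 to 13062895 in mammary gland. Of the libraries, 3 stood apart in their overall profile. The liver of phase shift cow 22 had 574 genes raised at least 4-fold over the median of its 11 peers, where every other liver had between 7 and 25. The mammary glands of phase shift cow 21 and control cow 26 had 438 and 686 such genes, against 14 to 92 in the others. In bulk tissue, fewer cells of a type and less RNA per cell cannot be told apart. Levels below are counts-per-million values (CPM), scaled per library by trimmed-mean factors computed within each tissue, but not by gene length. Levels are therefore compared between libraries of a tissue, and not between tissues or genes.

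The highest level of nearly every gene lay in 1 library per tissue, and the 2 libraries came from different cows under different treatments. In mammary gland, control cow 23 had the highest level of 8 of 8 genes. In liver, phase shift cow 23 had the highest level of 7 of 8 genes, MX2 being the exception. The mammary library of control cow 23 was the highest of 12 for 6.93% of all genes tested, and the liver library of phase shift cow 23 for 6.16%, so neither library was high across the transcriptome. Both cows were singled out after their values were seen.

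**Figure D1:**
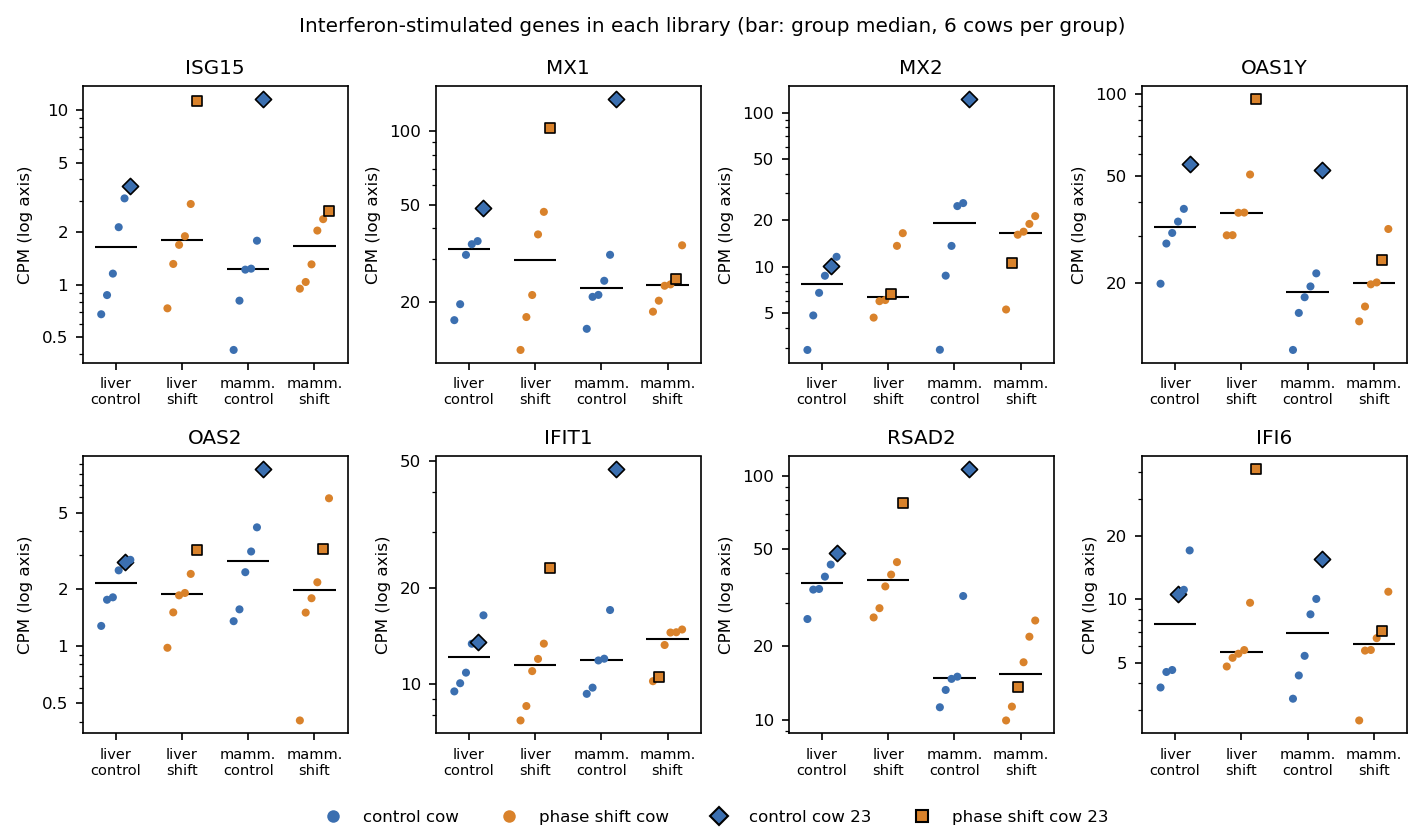
Level of each of the 8 genes in every library, in CPM on a log axis, by tissue and treatment; each point is 1 cow, bars are group medians (6 cows), and the outlined symbols are control cow 23 (diamond) and phase shift cow 23 (square). The diamond is the highest mammary point in 8 of 8 panels and the square the highest liver point in 7 of 8. CPM was scaled within each tissue, so points are compared within a tissue.

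ISG15 encodes a ubiquitin-like protein that is attached to other proteins during an interferon response. In liver it ran from 0.679 to 3.69 CPM in control cows (median 1.65, n = 6) and from 0.734 to 11.2 CPM in phase shift cows (median 1.79, n = 6). In mammary gland it ran from 0.424 to 11.6 CPM in control cows (median 1.23) and from 0.950 to 2.63 CPM in phase shift cows (median 1.68). The groups overlapped in both tissues, and 1 library per tissue was far above the rest. Phase shift cow 23 had 148 ISG15 reads in liver, or 11.2 CPM with a 95% exact binomial interval of 9.45 to 13.1, 6.60-fold the median of the remaining 11. Control cow 23 had 70 reads in mammary gland, or 11.6 CPM (9.04 to 14.7), 9.38-fold above the median of the other 11 glands. These intervals cover counting error only. Other libraries held as few as 3 ISG15 reads, so their order was set in part by counting error.

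MX1 and MX2 encode dynamin-like GTPases that block the replication of viruses, and they are neighbouring genes in the RefSeq annotation. MX1 in liver ran from 16.8 to 48.2 CPM in control cows (median 32.8, mean 30.9, SD 11.5) and from 12.7 to 102 CPM in phase shift cows (median 29.6, mean 39.7, SD 33.3). In mammary gland it ran from 15.5 to 136 CPM in control cows (median 22.9, mean 41.5, SD 46.4) and from 18.2 to 34.1 CPM in phase shift cows (median 23.4, mean 24.0, SD 5.48). The group medians were close in each tissue, while the group that held the highest cow had the larger mean and SD. Phase shift cow 23 had 3.29 times the median of the remaining livers, and control cow 23 had 5.83 times that of the remaining glands.

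MX2 departed from its neighbour in liver. It ran from 2.90 to 11.6 CPM in control livers (median 7.77) and from 4.69 to 16.5 CPM in phase shift livers (median 6.41). The highest value, 16.5 CPM, was that of phase shift cow 25, and phase shift cow 23, first for the other 7 genes, was at rank 7 of 12 with 6.72 CPM (89 reads). In that same liver MX1 had 1356 reads, or 102 CPM (97.0 to 108). In mammary gland, MX2 ran from 2.90 to 123 CPM in control cows (median 19.2) and from 5.30 to 21.3 CPM in phase shift cows (median 16.5). Control cow 23 was 7.62-fold above the median of the other glands. The lowest values were those of control cow 26 and phase shift cow 21, the mammary libraries that stand apart, and the part of that difference in these MX2 values was not tested.

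OAS1Y and OAS2 encode oligoadenylate synthetases, enzymes that sense double-stranded RNA and activate RNase L. In RefSeq the genes overlap each other and lie beside the related OAS1X and OAS1Z, so reads may have been divided between them. OAS1Y in liver ran from 19.9 to 55.4 CPM in control cows (median 32.3) and from 30.1 to 96.2 CPM in phase shift cows (median 36.5). In mammary gland it ran from 11.4 to 52.2 CPM in control cows (mean 23.0, SD 14.7) and from 14.5 to 31.8 CPM in phase shift cows (mean 21.2, SD 6.19). Control cow 23 was second in liver with 55.4 CPM and first in mammary gland with 52.2 CPM. OAS2 was detected with 3 to 51 reads per library. Its highest levels were 3.17 CPM in the liver of phase shift cow 23 (interval 2.29 to 4.29), close to the next liver at 2.83 CPM, and 8.45 CPM in the gland of control cow 23 (6.29 to 11.1), where the next had 5.94 CPM.

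IFIT1, RSAD2 and IFI6 complete the set. IFIT1 binds RNA with foreign ends, RSAD2 (viperin) is a radical SAM enzyme that makes a chain-terminating nucleotide, and IFI6 is a small membrane protein. IFIT1 ran from 7.71 to 23.1 CPM over all livers and from 9.34 to 47.2 CPM over all glands, and without the highest library the upper ends were 16.5 and 17.1 CPM. RSAD2 ran from 25.9 to 77.2 CPM in liver and from 9.93 to 107 CPM in gland, and without the highest library the upper ends were 48.4 and 32.2 CPM. IFI6 in the liver of phase shift cow 23 was at 41.4 CPM (interval 38.0 to 45.0) against 3.82 to 17.0 CPM in the other 11, or 7.49 times their median and 2.43 times the next liver. For ISG15 that liver had 6.60 times the median and 3.02 times the next. In the gland of control cow 23 IFI6 was at 15.6 CPM against 2.67 to 10.9 CPM in the other 11, or 2.71 times their median and 1.44 times the next gland.

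The 2 libraries therefore carried different profiles of the same 8 genes. Relative to the median of the other 11 libraries, the gland of control cow 23 was highest for ISG15 (9.38-fold), MX2 (7.62-fold), RSAD2 (7.25-fold) and MX1 (5.83-fold), followed by IFIT1 (3.93-fold), OAS2 (3.92-fold), IFI6 (2.71-fold) and OAS1Y (2.68-fold). The liver of phase shift cow 23 was highest for IFI6 (7.49-fold) and ISG15 (6.60-fold), followed by MX1 (3.29-fold), OAS1Y (2.84-fold), RSAD2 (2.19-fold), IFIT1 (2.10-fold) and OAS2 (1.72-fold), with MX2 close to their median. On log2 CPM, an excess of at least 4-fold over the other glands was seen for 3 of the 7 genes tested in mammary gland (MX1, MX2 and RSAD2), where 0.476% of all genes tested reached it. In liver it was seen for 2 of 8 (ISG15 and IFI6), where 0.145% of all genes tested reached it. Of the 20 genes so raised in that liver, 16 were tested in both tissues, and of the 74 raised in that gland, 31 were. These lists shared 1 gene, 6.25% of the liver list and 3.23% of the mammary list. The shared gene, ENSBTAG00000021565, was not a member and was named after its values were seen. Its log2 excess was 7.23 in the liver of phase shift cow 23 and 4.12 in the gland of control cow 23. It was also raised in the other tissue of each cow, at 4.23 in the gland of phase shift cow 23 and 5.42 in the liver of control cow 23.

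Averaged over the members tested, standardised log2 CPM was 2.39 in the gland of control cow 23 and 0.34 in the next gland, that of phase shift cow 22. In liver it was 1.88 for phase shift cow 23, followed by control cow 23 at 0.75 and phase shift cow 25, which has no mammary library, at 0.64. The lowest values in liver were -0.95, in phase shift cow 24, and -0.75, in control cow 24 (again different animals), so each treatment held both high and low livers.

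Spread between cows was above that of the typical gene for every member tested in either tissue. In liver the SD of log2 CPM over 12 cows was 1.05 for ISG15, 0.99 for IFI6, 0.83 for MX1, 0.70 for MX2, 0.57 for OAS1Y, 0.46 for OAS2, 0.43 for RSAD2 and 0.42 for IFIT1, against a median of 0.28 over all genes tested. In rank among all genes tested, ISG15 was at percentile 97.8 and IFIT1, the lowest, at percentile 72.7. In mammary gland it was 1.30 for MX2, 0.98 for OAS2, 0.93 for RSAD2, 0.80 for MX1, 0.69 for IFI6, 0.61 for IFIT1 and 0.56 for OAS1Y, against a median of 0.39, at percentiles from 96.9 for MX2 down to 69.2 for OAS1Y. ISG15 had an SD of 1.03 there. These ranks are descriptions, and genes of few reads such as OAS2 and ISG15 carry more counting error than the typical gene.

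**Figure D2:**
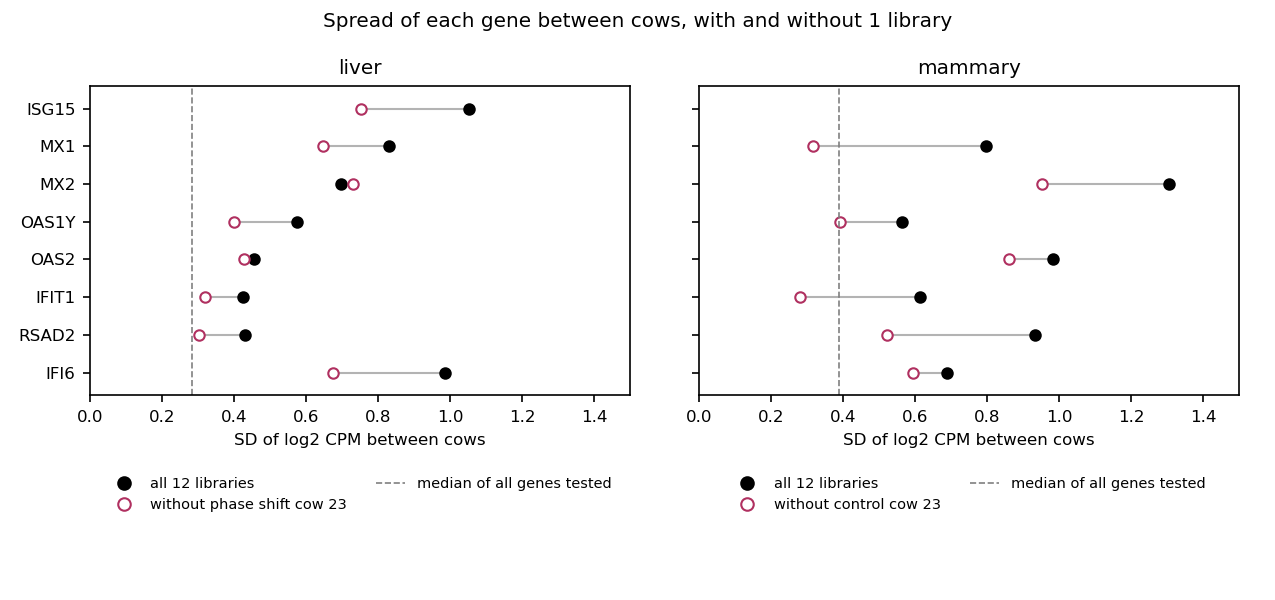
SD of log2 CPM between cows for each gene, over all 12 libraries of a tissue (filled) and without 1 library (open: without phase shift cow 23 in liver, without control cow 23 in mammary gland); the dashed line is the median SD of all genes tested over 12 libraries. ISG15 is not drawn for mammary gland, where it did not pass the filter. In mammary gland the open points of MX1 (0.32) and IFIT1 (0.28) lie below the line.

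Much of this spread came from 1 cow per tissue in some genes and not in others. The library left out was picked as the highest for most members, so a fall in their SD and percentile follows largely from that choice. The values below are descriptions. Without control cow 23 the mammary SD of MX1 fell from 0.80 to 0.32, and its percentile from 85.3 to 37.7. That of IFIT1 fell from 0.61 to 0.28, at percentile 30.7, and that of RSAD2 from 0.93 to 0.52, at percentile 64.8. MX2 (0.95) and OAS2 (0.86) kept wide spreads without that cow, at percentiles 90.9 and 87.8. Glands that stand apart were the lowest for both: control cow 26 and phase shift cow 21 for MX2, and phase shift cow 21 (3 reads) for OAS2. No SD was taken without those glands and control cow 23 together. In liver, without phase shift cow 23, ISG15 still had an SD of 0.75, MX2 of 0.73, IFI6 of 0.68 and MX1 of 0.65, at percentiles 93.1, 92.4, 90.6 and 89.5, while RSAD2 fell to 0.30 and percentile 53.4. Liver levels of ISG15, MX2, IFI6 and MX1 thus varied widely among the remaining 11 cows too.

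Most pairs of the genes rose and fell together over livers, less closely without phase shift cow 23, and in mammary gland mostly through 1 cow. Over 12 livers, Pearson's r of log2 CPM was positive for 27 of 28 pairs of members, with a median of 0.62, the highest being ISG15 with OAS1Y (0.927) and the lowest IFIT1 with MX2 (-0.204). Without phase shift cow 23 it was positive for 26 of 28 pairs, with a median of 0.42, and IFI6 with IFIT1 stood at -0.246. Over 12 glands it was positive for 21 of 21 pairs of the genes tested, with a median of 0.56. Without control cow 23 the number was 12 of 21 and the median 0.15, and MX2 with RSAD2 stood at -0.65. Control cow 26 and phase shift cow 21, whose glands stand apart, were at ranks 12 and 11 for MX2 but 2 and 3 for RSAD2. Without control cow 23 the median r was -0.384 over the 6 pairs with MX2 and 0.232 over the 15 others. Over all 12 glands these medians were 0.504 and 0.736. These values are descriptions over libraries that share depth and scaling, and no test was made of them. No such values were taken for pairs of other genes.

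Whether a cow high in one tissue was high in the other was examined over the 11 cows with both. Control cow 23, first in mammary gland for all 8 genes, was at rank 2 in liver for 4 (ISG15, MX1, OAS1Y and RSAD2), at rank 3 for OAS2 and IFIT1 and at rank 4 for MX2 and IFI6. Its liver library was first or second for 15.2% of all genes tested. Phase shift cow 23, first in liver for 7 genes, ranked between 2 and 9 in mammary gland, with ISG15 second at 2.63 CPM and OAS1Y at rank 3 with 24.3 CPM, and IFIT1 (10.5 CPM) and MX2 (10.6 CPM) at rank 9. In that gland of phase shift cow 23, MX1 and OAS2 were at rank 4. No test was made of these ranks.

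The cow labels of these 4 libraries were compared with other genes. Over the 300 genes most variable in both tissues, members left out, the liver of control cow 23 correlated best with its own gland (r = 0.211) among the 12 glands, and at 0.038 with that of phase shift cow 23. The liver of phase shift cow 23 also correlated best with its own gland (r = 0.195). Its next-best gland was at 0.13, and that of control cow 23 at 0.076. All these r are taken across genes, so they carry no p.

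**Figure D3:**
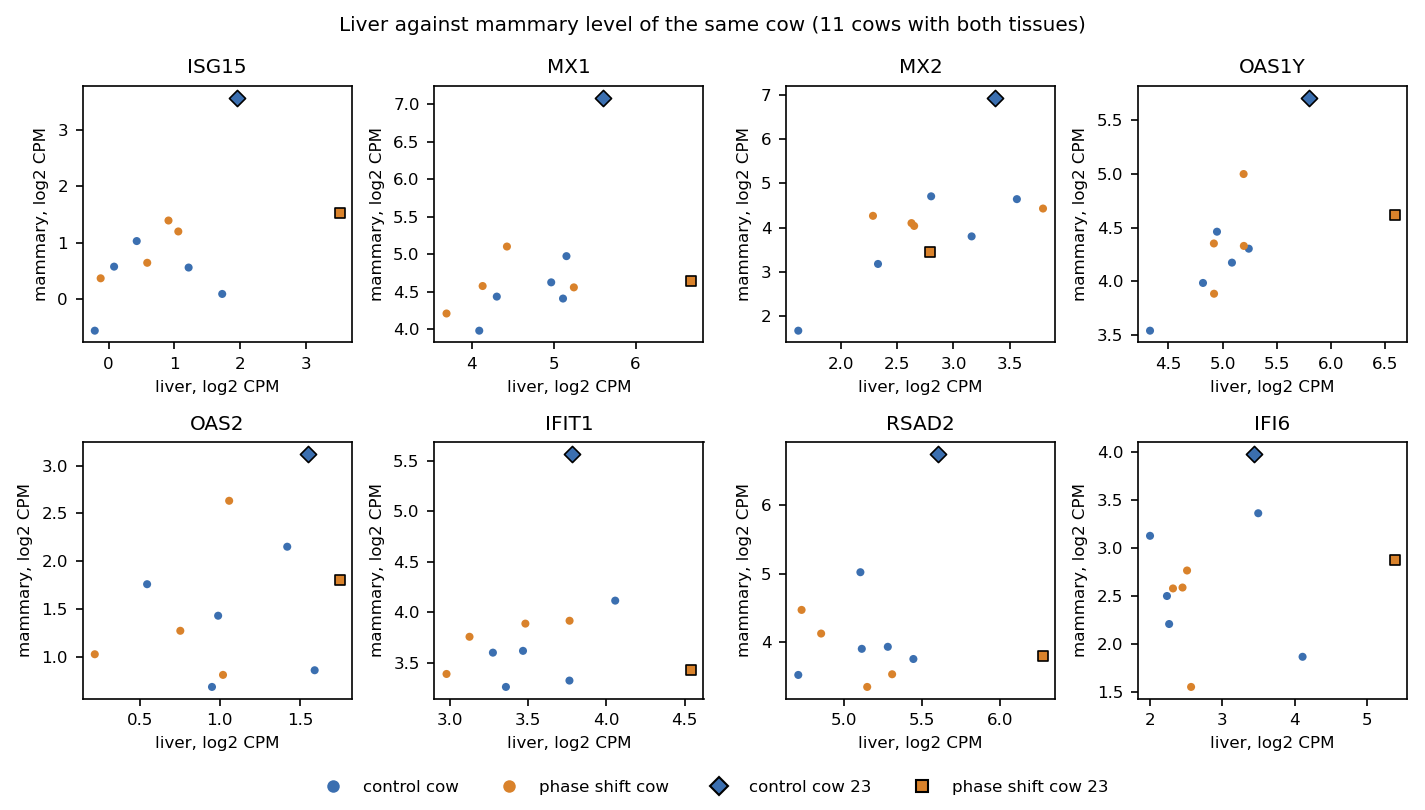
Level in mammary gland against level in liver of the same cow, in log2 CPM, for each gene over the 11 cows with both tissues; blue is control, orange phase shift, and the outlined symbols are control cow 23 (diamond) and phase shift cow 23 (square). The diamond lies at the top of all 8 panels, and the square at the right edge of all panels but MX2.

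Correlation between tissues was tested for each of 12940 genes by permuting the pairing of livers and glands (100000 permutations, two-sided), with Benjamini-Hochberg adjustment over all of them. No member passed. Of all genes, 3 passed (0.0232%), each at the smallest p these permutations can give (1e-05), and 5.46% had an unadjusted p under 0.05. Pearson's r was positive for 7 of the 7 members tested and for 54.6% of all genes, with a median of 0.36 against 0.038 over all genes. The members share the same cows, so their signs are not independent of each other. Only MX2 had an unadjusted p under 0.05.

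For MX2, Pearson's r was 0.686 (permutation p = 0.0221, adjusted p = 0.769) and Spearman's rho was 0.645 (permutation p = 0.0372, adjusted p = 0.851). Without phase shift cow 19 and control cow 26, the 2 cows farthest from the median in liver, r was 0.567. For OAS1Y, r was 0.633 (permutation p = 0.0513, adjusted p = 0.918) and rho 0.691 (permutation p = 0.0229, adjusted p = 0.824). Without phase shift cow 23 and control cow 24, r was 0.867, and within the 6 control cows it was 0.932. For MX1, r was 0.400 (permutation p = 0.193, adjusted p = 0.984) and rho 0.636 (permutation p = 0.0399, adjusted p = 0.865), with r at 0.618 without the 2 farthest cows and at 0.777 within the control cows. Within control cows r was 0.813 for MX2, 0.608 for RSAD2, 0.606 for ISG15, 0.460 for IFIT1, 0.287 for OAS2 and 0.032 for IFI6, so it was positive for all 8 and near 0 for IFI6. These 6 cows include control cow 23, whose gland was the highest for all 8 genes. No r within control cows was taken without that cow, nor over all genes. The phase shift cows with both tissues number 5, too few for a value of their own.

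The other genes showed less. OAS2 had an r of 0.36 (permutation p = 0.275, adjusted p = 0.984) and a rho of 0.382 (permutation p = 0.250, adjusted p = 0.982), with r at 0.286 without the 2 farthest cows. IFIT1 had 0.189 (permutation p = 0.554, adjusted p = 0.999) and 0.427 (permutation p = 0.194, adjusted p = 0.981), with r at 0.472 without them. IFI6 had 0.152 (permutation p = 0.649, adjusted p = 0.999) and 0.136 (permutation p = 0.694, adjusted p = 0.995). Without control cow 19 and phase shift cow 23, r of IFI6 was 0.590, but without both cows numbered 23 it was -0.157, so neither its size nor its sign was stable. RSAD2 had 0.143 (permutation p = 0.624, adjusted p = 0.999) and -0.018 (permutation p = 0.968, adjusted p = 1), and its r without control cow 23 and phase shift cow 23, its 2 farthest cows, was -0.227, so the positive sign rested on them. ISG15, not tested for want of mammary reads, had an r of 0.532 and a rho of 0.582. Leaving out both cows numbered 23 raised r for other members, to 0.741 for MX2, 0.757 for OAS1Y, 0.460 for MX1 and 0.505 for IFIT1. It lowered r to 0.114 for OAS2 and 0.312 for ISG15.

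Phase shifts were compared with the constant cycle in each tissue with edgeR's quasi-likelihood F test, adjusted over all genes tested. In liver 0 of 8 members passed, as did 0% of all genes. No member had an unadjusted p under 0.05, where 5.91% of all genes did, and member adjusted p ran from 0.758 to 0.978. The log2 fold change, phase shift minus control, was above 0 for 7 of 8, with a median of 0.31 against 0.013 over all genes. The largest was 0.81 for ISG15 (SE 0.65, 95% confidence interval -0.60 to 2.22, adjusted p = 0.779), and for OAS1Y it was 0.45 (SE 0.32, interval -0.25 to 1.15, adjusted p = 0.758). Without phase shift cow 23, the log2 fold change was below 0 for 6 of 8, among them ISG15 at -0.14, MX1 at -0.19 and IFI6 at -0.47, and 0 passed. The treatment groups overlapped for all 8 genes, where 0.247% of all genes had groups that did not.

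In mammary gland 0 of 7 members passed, as did 0% of all genes. No member had an unadjusted p under 0.05, where 4.75% of all genes did, and member adjusted p ran from 0.923 to 0.984. The log2 fold change was below 0 for 7 of 7, with a median of -0.50 against -0.0081 over all genes. MX2 had -1.15 (SE 0.71, interval -2.69 to 0.39, adjusted p = 0.923), RSAD2 had -0.95 (SE 0.55, interval -2.15 to 0.24, adjusted p = 0.923) and MX1 had -0.79 (SE 0.49, interval -1.85 to 0.27, adjusted p = 0.923). Without control cow 23 these were -0.023, -0.063 and 0.081, and MX1 had an interval of -0.36 to 0.52. For ISG15 a fit without the low-count filter gave -0.70 (SE 0.70, adjusted p = 0.885), and without control cow 23, when it passed the filter, it had 0.64 (SE 0.42, adjusted p = 0.868). The groups overlapped for all 8 genes, where 0.302% of all genes had groups that did not.

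**Figure D4:**
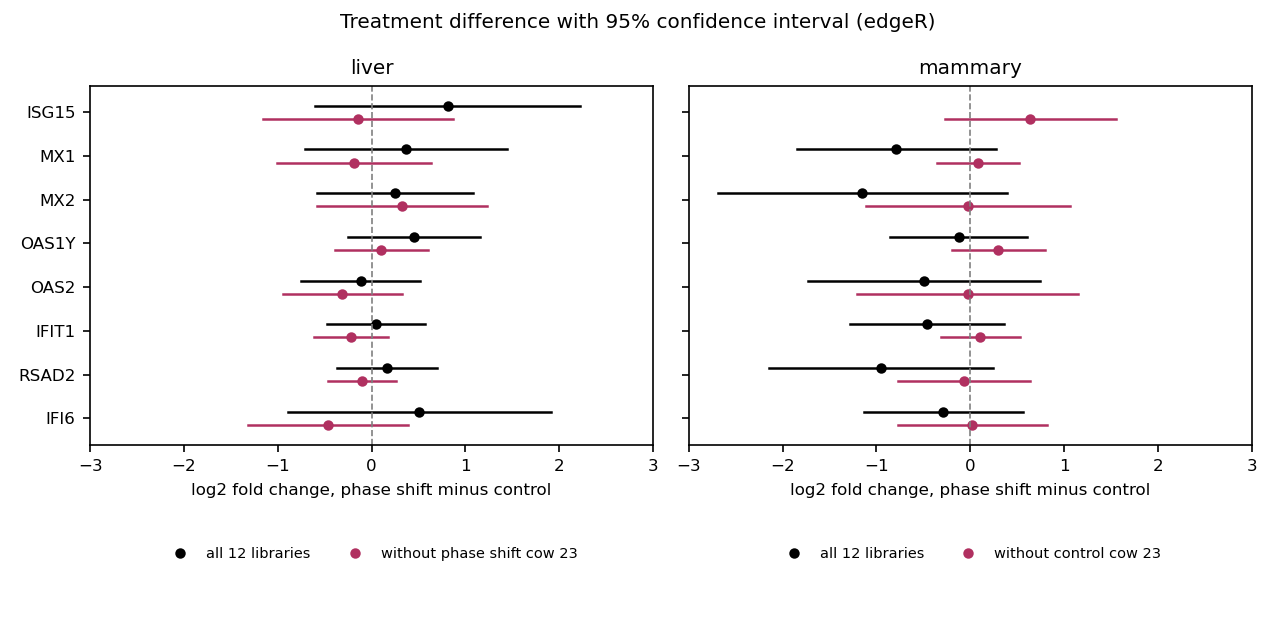
Log2 fold change (phase shift minus control) of each gene in liver and mammary gland, with its 95% confidence interval derived from edgeR's F statistic. Fits used all 12 libraries (black) or left out 1 library (red: phase shift cow 23 in liver, control cow 23 in mammary gland). ISG15 in mammary gland was tested only in the second fit. Every interval crosses 0, and in mammary gland the red points of MX1, MX2 and RSAD2 lie within 0.1 of it.

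The intervals show what these data could resolve. With all libraries, the liver interval of IFIT1 ran from -0.48 to 0.57 and that of RSAD2 from -0.37 to 0.70, whereas that of IFI6 ran from -0.89 to 1.91. In mammary gland the interval of MX2 spanned more than that of any other member, and OAS1Y lay between -0.85 and 0.61. These bounds moved with single cows, as the MX1 interval without control cow 23 shows. The difference in response between tissues (mammary minus liver) was below 0 for 8 of 8 members in a fit to all 24 libraries, with 0 passing (0% of all genes), no member at an unadjusted p under 0.05 (6.67% of all genes) and edgeR adjusted p from 0.762 to 0.954. With the cow as a block, over the 11 cows with both tissues, it was below 0 for 7 of 8 and closer to 0 for all of them, at -0.29 for ISG15, -0.23 for MX1 and -0.14 for MX2 against -1.48, -1.15 and -1.39, and 0 members passed. Without the liver of phase shift cow 23 and the gland of control cow 23 it was above 0 for 7 of 8.

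With all 24 libraries scaled together, levels differed between the tissues themselves for most members. Averaged over treatments in that fit, which ignores that 2 libraries share a cow, 6 of 8 were lower and 0 higher in mammary gland at an edgeR adjusted p under 0.05. Of all genes 72.8% passed, 33.9% as lower and 38.9% as higher in mammary gland, so passing was common. The same 6 had an unadjusted p under 0.05, as had 74.6% of all genes. OAS1Y had a log2 fold change (mammary minus liver) of -1.85 (SE 0.25, adjusted p = 4.04e-07) and RSAD2 one of -1.78 (SE 0.32, adjusted p = 3.01e-05), and with the cow as a block these were -1.83 and -2.10, so their order was not fixed. The difference was smaller for IFI6 at -1.51 (SE 0.38, adjusted p = 0.00113), MX1 at -1.15 (SE 0.36, adjusted p = 0.00599) and IFIT1 at -0.70 (SE 0.24, adjusted p = 0.0100). ISG15 had -1.19 (SE 0.50, adjusted p = 0.0370) and did not pass without control cow 19 (adjusted p = 0.0952), control cow 24 (0.0510), control cow 25 (0.0743), control cow 26 (0.0510) or phase shift cow 23 (0.136), nor without the 3 libraries that stand apart (0.0588). OAS2, at -0.48 (SE 0.33, adjusted p = 0.198), and MX2, at 0.45 (SE 0.42, adjusted p = 0.343), did not pass, and MX2 had -0.065 without control cow 23.

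The call for IFIT1 and ISG15 depended on scaling. The median log2 fold change of all genes was 0.078 with trimmed-mean scaling and 0.39 with upper-quartile scaling, under which IFIT1 (-0.39, adjusted p = 0.128) and ISG15 (-0.88, adjusted p = 0.114) did not pass and the other 4 did. With trimmed-mean scaling 6485 of all genes were higher and 5647 lower in mammary gland, and with upper-quartile scaling 8661 and 4260. With the cow as a block, over the 11 cows with both tissues, the same number of members, 6, passed.

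Genes outside the set that followed it most closely were sought by Pearson's r with the mean standardised log2 CPM of the members tested, over the 12 libraries of a tissue. In liver these were ENSBTAG00000022489 (r = 0.942) and ENSBTAG00000013900 (r = 0.932), and without phase shift cow 23 they had 0.912 and 0.876. In mammary gland they were ENSBTAG00000003366 (r = 0.908) and ENSBTAG00000034918 (r = 0.876), and without control cow 23 they had 0.486 and 0.212. ENSBTAG00000034918 had 17.4 CPM in the gland of control cow 23 and 3.86 to 7.50 CPM in the other 11. An r above 0.9 was reached by 2 of 13744 other genes in liver and 1 of 15540 in mammary gland.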

How the data were processed

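The submitters' processing notes name Trimmomatic 0.36, STAR 2.5.2b, the build ARS-UCD1.2, featureCounts (Subread 1.5.2) and DESeq2. The sources used here do not give the annotation release or strand setting. The authors deposited raw counts per gene, a normalized signal (each count divided by 1 size factor per library, tested on the files) and regularized log2 values. The counts were used here, and the log2 values in alternatives. The members and lists were chosen with earlier results of these data known.

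Genes passed filterByExpr (minimum count 10, minimum total 15). Tests used edgeR 4.0.16 (quasi-likelihood F test, robust, TMM) in R 4.3.3, with Benjamini-Hochberg adjustment over all genes tested and a threshold of 0.05, after checks on simulated data. CPM is relative to TMM-scaled reads of tested genes, with TMM factors computed within each tissue, and log2 CPM used a prior count of 2. Fits to all 24 libraries computed these factors over both tissues together. Alternatives were DESeq2 1.42.0, limma-voom (limma 3.58.1), other scalings, no filter, a shared-number or cow block, and leaving out each library or cow. Between treatments, deviations of libraries with the same number correlated at -0.384 to 0.165. Weak correlations cannot show whether the number pairs cows, and no label says what it means. The shared number was therefore a block only in an alternative. Between tissues the cow is the same animal. All 8 members are named by rule, with the 2 genes most like them per tissue. Further interferon genes and cell type markers were listed by symbol, but the RefSeq table used (ARS-UCD2.0, 37063 genes) pairs 0 Ensembl IDs with symbols, so those lists were not applied and the labelled tissues were not checked against markers. RefSeq served only for which members neighbour or overlap.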

Additional observations from a re-analysis of the deposited data

Results flagged for a closer look

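Among 32 groups of 6 log2 CPM values (8 genes, 2 tissues, 2 treatments), 3 held a cow whose gap to its nearest neighbour, as a share of the group's range, was above Dixon's 95% critical value. Chance flags about 1 group in 20, or 1.6 of 32. IFI6 in the liver of phase shift cow 23 was at 41.4 CPM (ratio 0.681). In the gland of control cow 23, MX1 was at 136 CPM (ratio 0.680) and IFIT1 at 47.2 CPM (ratio 0.630). The groups share libraries, so these values are not independent of each other.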

How the results depend on the processing

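No member passed for treatment, for the interaction or for agreement between tissues under any setting that gave it an adjusted p. DESeq2 gave one to 3 of 8 members in liver and 6 in mammary gland. The lowest over settings was 0.663 in liver, 0.721 in mammary gland, 0.685 for the interaction and 0.432 for agreement. Over all genes, DESeq2 called 16 in liver and 1 for the interaction, and the replicate block on the shared number called 2 in liver and changed no call of a member, nor did the block on the cow. Leaving out 1 cow gave 0 to 1 calls in liver (1 without control cow 26). For agreement it gave 0 to 3 calls (3 only without phase shift cow 23), with 0 by Spearman, on regularized log values or without the libraries that stand apart, and 1 without both cows 23, an alternative chosen after seeing the data. The cause was not tested.

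Directions depended on single cows. Leaving out 1 cow, the liver log2 fold change ran from -0.47 to 0.82 for IFI6, -0.22 to 0.15 for IFIT1, -0.14 to 1.10 for ISG15, -0.19 to 0.55 for MX1 and -0.10 to 0.27 for RSAD2, each lowest without phase shift cow 23. It ran from -0.026 (without phase shift cow 25) to 0.42 for MX2 and from -0.31 to 0.013 (without phase shift cow 24) for OAS2. The mammary value ran from -0.49 to 0.023 for IFI6, -0.59 to 0.11 for IFIT1, -0.96 to 0.081 for MX1 and -0.27 to 0.30 for OAS1Y, each highest without control cow 23. IFIT1 in liver was -0.0073 on regularized log values, -0.13 with the replicate block and -0.016 with upper-quartile scaling, and OAS1Y in mammary gland was 0.017 in limma-voom. The interaction ran from -1.26 to 0.16 for IFI6, -0.64 to 0.041 for IFIT1 and -0.83 to 0.0097 for OAS2, which had 0.043 with the replicate block on the cow. Without the liver of phase shift cow 23 and the gland of control cow 23 it was 0.50 for IFI6, 0.35 for IFIT1, 0.81 for ISG15, 0.27 for MX1, 0.20 for OAS1Y, 0.30 for OAS2 and 0.034 for RSAD2, and mammary against liver was -0.15 for MX2 (-0.065 to 0.59 leaving out 1 cow). Between tissues, r was -0.157 for IFI6 and -0.227 for RSAD2 without both cows 23, and -0.207 to 0.396 for RSAD2 leaving out 1 cow, with -0.0182 by Spearman.

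The tissue difference of OAS2 passed in limma-voom (-0.77, adjusted p = 0.0357). The median SD of the 8 members was 0.64 in liver and 0.86 in mammary gland. On regularized log values, which shrink genes of few reads, it was 0.38 in each, and leaving out 1 cow gave 0.54 to 0.66 and 0.56 to 0.91. Depth limits ISG15 and OAS2, at 3 to 148 reads per library.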
